A study of Mus musculus with 4 samples.

Results

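Described here are 10 genes of the unfolded protein response, Atf6, Eif2ak3, Ern1, Xbp1, Atf4, Ddit3, Hspa5, Hsp90b1, Calr and Pdia4, out of 32245 gene symbols counted in nuclei of mouse brain. They were taken by symbol from the gene list of each library and are described in every class of nuclei that could be named. The rule used no measured value, but the genes were chosen with earlier results of these data known. Among them are Xbp1, Atf4 and Eif2ak3, which the study names from these libraries. Whole-brain nuclei came from female 5XFAD mice, a transgenic model of Alzheimer's disease with transgenes driven by the neuronal Thy1 promoter, so that every group shared this genotype. The mice were 7 to 10 weeks old by the series' design text and received extracellular vesicles (EVs) by vein. The vesicles were engineered carriers of lipid with a low or a high content of phosphatidylethanolamine (PE), which gave the groups PE-low and PE-high with 2 libraries each. Each library pooled more than 1 mouse, and vehicle-treated or wild-type mice were not analysed here.

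The unfolded protein response is how a cell reacts when unfolded proteins build up in the endoplasmic reticulum (ER). Its 3 sensors sit in the ER membrane: PERK, encoded by Eif2ak3, lowers translation and thereby favours the factor ATF4, IRE1α, encoded by Ern1, splices the mRNA of the factor XBP1, and ATF6 is itself cut to release a factor. These factors raise ER chaperones such as BiP (Hspa5), and lasting PERK signalling raises the pro-apoptotic factor CHOP (Ddit3). The response acts largely through splicing, phosphorylation, cleavage and translation, none of which counts of 3′ ends of nuclear RNA record, so the levels given here are those of transcripts only.

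After the limits of the study on genes and on mitochondrial RNA, 10689 of 45564 called nuclei were kept, between 1457 and 3458 per library, with 3026179 to 8888951 UMIs (unique molecular identifiers, each standing for 1 captured RNA molecule) per library. PE-high replicate 1 kept the fewest nuclei and had the highest median mitochondrial share among kept nuclei (2.35%, against 1.96% to 2.20% in the other libraries). Between 0 and 4 kept cell barcodes were shared by any pair of libraries, and doublets were not removed. Clusters were named from marker genes into excitatory neuron-like (4361 nuclei), striatal projection neuron-like (2431), inhibitory neuron-like (1849), oligodendrocyte-like (529), astrocyte-like (473), oligodendrocyte precursor-like (231) and microglia-like (164) nuclei, and 651 nuclei were left unnamed. Each class held the highest summed level of its own markers, except that the inhibitory list was higher in precursors than in inhibitory neurons. Neuronal markers were present in every glial class, at a mean of 2167 CPM (counts per 1000000 UMIs) for the excitatory markers in microglia-like nuclei against 2328 CPM for the microglial markers. In precursor-like nuclei the inhibitory list reached 4556 CPM and the astrocyte list 4183 CPM beside 8550 CPM for their own. A rough estimate of the part of RNA from other cells in each class is therefore given below.

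The members made up 13545 UMIs, or 0.0536% of the UMIs of kept nuclei, from 184 UMIs for Ddit3 to 4082 for Atf6. Ddit3 has 2 identifiers in the gene list, of which the second held 0 UMIs in kept nuclei, and Hsp90b1 overlaps the transcript Gm15344 on the same strand by 0.977 kb, so that reads there are uncertain. In what follows the 4 values of a class are in CPM and in the order PE-low replicate 1, PE-low replicate 2, PE-high replicate 1 and PE-high replicate 2, means are given with the SD over these 4 libraries, and the class suffix "-like" is left out.

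Among the sensors, Atf6 (ENSMUSG00000026663, chromosome 1, 170704674 to 170867771, minus strand, build GRCm38) had the clearest difference between classes. In striatal projection neurons it measured 209, 246, 255 and 232 CPM (235 ± 20.3, n = 4). In excitatory neurons it measured 153, 198, 179 and 173 CPM (176 ± 18.6), and in inhibitory neurons 100.2, 87.7, 65.5 and 85.8 CPM (84.8 ± 14.3). Every striatal library lay above every excitatory library, and every excitatory library above every inhibitory one. The 4 glial classes, with means of 102 to 144 CPM, lay between the excitatory and inhibitory neurons, and no neighbours among them or between them and these neurons were separate in the ranges of their libraries. The mean of striatal nuclei was 2.77 times that of inhibitory nuclei.

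Within the neuron classes Atf6 varied from cluster to cluster. Among 10 excitatory clusters it ran from 57.6 ± 20.3 CPM (n = 4) in 115 nuclei led by Nr4a2, Col24a1 and Ntng2 to 285 ± 77.0 CPM in 640 nuclei with the deep-layer markers Tle4, Hs3st4 and Foxp2. That last cluster measured 189, 377, 280 and 294 CPM, a wide spread with the PE-low libraries at both ends. A cluster of 1064 nuclei with the upper- and middle-layer markers Cux2 and Rorb reached 247 ± 34.2 CPM. These markers did not go with a single level of Atf6. A further cluster of 106 nuclei with Tle4, Hs3st4 and Foxp2 had 98.2 ± 38.9 CPM. Other clusters with both Cux2 and Rorb ran from the lowest one, at 57.6 CPM, to 187 ± 32.2 CPM. The striatal class was uneven as well. In it, 635 nuclei with the D1 dopamine receptor gene Drd1 and led by Ebf1 had 265 ± 28.8 CPM, and 537 nuclei led by the D2 receptor gene Drd2 had 241 ± 32.0 CPM, with ranges that overlapped. A cluster of 403 nuclei with Drd2 among its leading genes and Drd1 among its markers had 149 ± 33.4 CPM (102 to 180 CPM), under the mean of the excitatory class, and clusters of 116 and 132 nuclei had 177 ± 62.5 and 201 ± 65.2 CPM. The last of the 9, with 26 nuclei, held 1 Atf6 UMI. It was named striatal from its markers, but its leading genes, among them Tacr1 and Nos1, are known from a type of interneuron and go against that name. Without it Atf6 measured 210.4, 247, 258 and 234 CPM in striatal nuclei (237 ± 20.5, n = 4), and Eif2ak3 and Ern1 had means of 16.0 and 14.3 CPM.

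Eif2ak3 (ENSMUSG00000031668, chromosome 6, 70844515 to 70905245, plus strand), the gene of PERK, differed little between excitatory and inhibitory neurons and was lower in striatal ones. It measured 31.8, 28.6, 24.3 and 25.9 CPM in excitatory neurons (27.7 ± 3.29, n = 4), 26.2, 25.9, 25.6 and 29.6 CPM in inhibitory neurons (26.8 ± 1.85) and 14.8, 21.6, 13.6 and 14.1 CPM in striatal neurons (16.0 ± 3.75). The highest striatal library lay below the lowest of the other neurons. In glia the gene rested on 11 to 21 UMIs per class, with means from 22.1 CPM in astrocytes to 30.5 CPM in microglia, and no ranges of neighbours in the order of classes were separate. Precursors held 0 UMIs in both PE-high libraries, which at their depth allows up to 142 and 35.3 CPM (3 counts, for counting error only).

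Ern1 (ENSMUSG00000020715, chromosome 11, 106394650 to 106487852, minus strand), which encodes IRE1α, showed the same low striatal level. Striatal neurons had 14.8, 12.9, 15.3 and 14.9 CPM (14.5 ± 1.10, n = 4), excitatory neurons 23.7, 25.03, 26.7 and 22.4 CPM (24.4 ± 1.86) and inhibitory neurons 26.2, 30.2, 28.5 and 23.7 CPM (27.1 ± 2.84). Astrocytes had the highest mean, 39.2 ± 20.5 CPM, from 29.0, 16.1, 49.7 and 61.8 CPM and 24 UMIs. Their lowest library was above the highest striatal one, while they overlapped with both other neuron classes. The sensors therefore did not share an order of class means: the striatal neurons were at the top for Atf6 and at the bottom for Eif2ak3 and Ern1. For Eif2ak3 the highest and lowest classes overlapped in their libraries. At the mitochondrial limit of 15% used below, astrocytes (17.3 ± 6.18 CPM) had a lower mean of Eif2ak3 than striatal neurons (19.3 ± 2.14 CPM). For Ern1 the high astrocyte mean did not hold there: it was 25.5 ± 6.49 CPM, beside 25.9 ± 2.47 CPM in inhibitory neurons. Microglia had 38.2 ± 3.74 CPM of Ern1 at that limit, and striatal neurons stayed low at 11.8 ± 1.85 CPM.

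**Figure D1:**
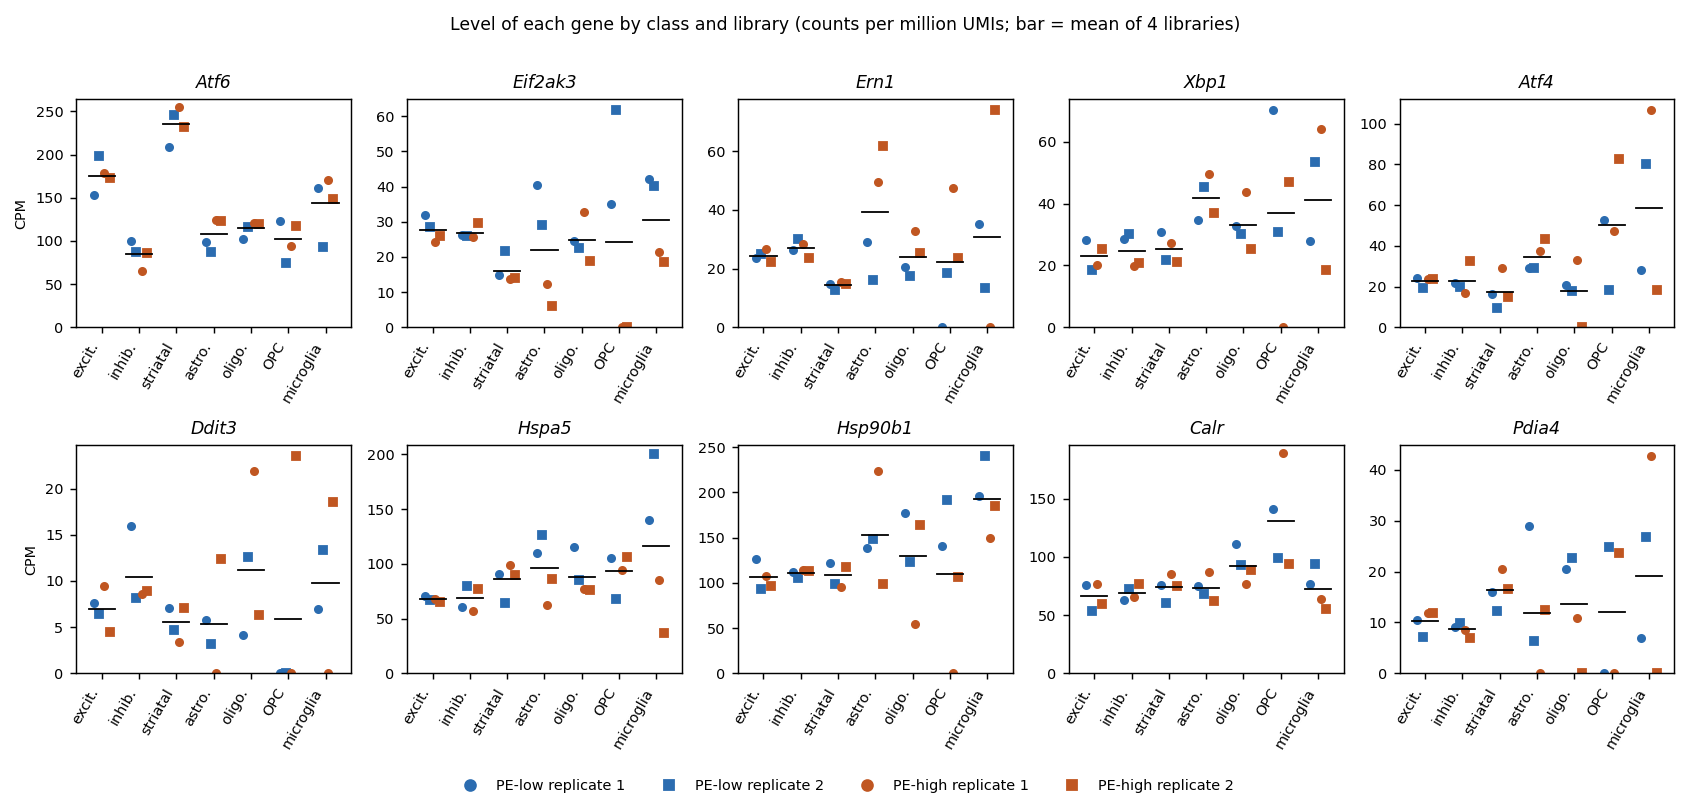
Level of each of the 10 genes in 7 named classes of nuclei, in CPM on linear axes from 0, with 1 point per library (blue PE-low, orange PE-high, circles replicate 1, squares replicate 2) and a bar at the mean of 4 libraries. Atf6 is highest in striatal nuclei (235 CPM) and lowest in inhibitory nuclei (84.8 CPM), whereas most other genes overlap between classes and scatter widely in the small glial classes.

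Of the transcription factors, Xbp1 (ENSMUSG00000020484, chromosome 11, 5520659 to 5525893, plus strand) was at like levels in the 3 neuron classes. It measured 28.3, 18.6, 20.2 and 25.3 CPM in excitatory neurons (23.1 ± 4.53, n = 4), with means of 24.8 ± 5.26 CPM in inhibitory and 25.2 ± 4.60 CPM in striatal neurons. Astrocytes measured 34.8, 45.2, 49.7 and 37.1 CPM (41.7 ± 6.95), each above every excitatory library, and the ratio of means was 1.81. Oligodendrocytes (33.1 ± 7.84 CPM), precursors (37.1 ± 29.6 CPM) and microglia (41.1 ± 21.3 CPM) overlapped with both, on 12 to 28 UMIs per class.

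Atf4 (ENSMUSG00000042406, chromosome 15, 80255184 to 80257541, plus strand) measured 24.2, 19.4, 23.7 and 23.8 CPM in excitatory neurons (22.8 ± 2.26, n = 4) and 16.5, 9.35, 28.9 and 14.9 CPM in striatal neurons (17.4 ± 8.26). Astrocytes had 29.0, 29.1, 37.3 and 43.3 CPM (34.7 ± 6.95), and were separate from the excitatory neurons. The highest mean, 58.4 ± 42.2 CPM in microglia, came from 28.1, 80.2, 107 and 18.5 CPM and 16 UMIs, so that its libraries spanned almost the whole order of classes. Ddit3 (ENSMUSG00000025408, chromosome 10, 127290774 to 127296288, plus strand) was sparse, with 8.38, 6.75, 7.60 and 6.69 CPM over all kept nuclei (7.36 ± 0.801). Its class means ran from 5.35 CPM in astrocytes, on 4 UMIs, to 11.2 CPM in oligodendrocytes, on 9 UMIs, and no neighbouring classes were separate.

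Among the chaperones and folding enzymes, Hspa5 (ENSMUSG00000026864, chromosome 2, 34771970 to 34777547, plus strand) encodes BiP, the ATP-driven chaperone of the ER lumen that also holds the sensors inactive. It measured 70.4, 66.9, 68.2 and 65.0 CPM in excitatory neurons (67.6 ± 2.28, n = 4), 60.3, 79.9, 57.0 and 76.9 CPM in inhibitory neurons (68.5 ± 11.5) and 91.0, 64.3, 98.7 and 89.5 CPM in striatal neurons (85.9 ± 14.9). The glial means lay between 88.3 and 116 CPM, and no neighbours in the order were separate. Hsp90b1 (ENSMUSG00000020048, chromosome 10, 86690209 to 86705509, minus strand), the gene of the ER chaperone GRP94, was close to even among neurons, with means of 106 ± 14.9, 111 ± 3.75 and 109 ± 13.1 CPM in excitatory, inhibitory and striatal nuclei. Microglia had 196, 241, 149.6 and 185 CPM (193 ± 37.5), on 63 UMIs, all above the highest library of every neuron class.

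Calr (ENSMUSG00000003814, chromosome 8, 84841850 to 84846934, minus strand), which encodes the calcium-binding lectin chaperone calreticulin, measured 76.2, 53.9, 76.5 and 59.6 CPM in excitatory neurons (66.6 ± 11.6, n = 4). Precursors had the highest mean, with 141, 99.1, 189 and 94.2 CPM (131 ± 44.3) on 36 UMIs, above every excitatory library. Pdia4 (ENSMUSG00000025823, chromosome 6, 47796141 to 47813430, minus strand), which encodes the disulphide isomerase ERp72, was low, at 16.3 ± 3.34 CPM in striatal neurons, 10.3 ± 2.28 CPM in excitatory neurons and 8.62 ± 1.28 CPM in inhibitory neurons. The lowest striatal library, at 12.3 CPM, lay above the highest of the other neurons, at 11.9 CPM. Over all 10 genes, 6 neighbour pairs each in the order of classes, the libraries were separate in 1 pair for Atf6, in 1 pair for Atf4 and in none for the other genes. The share of all genes with classes separate in this way was not counted. The separate ranges given above for single genes are therefore a description only.

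Promoters are shown for the 3 chaperone genes that hold the ER stress response element, through which ATF6 raises genes of this kind. RefSeq promoters (build GRCm38.p6, from 250 bases before to 50 after the start of the gene) were found for 9 of the 10 members. The ER stress response element, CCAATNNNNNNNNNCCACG, was searched on both strands and was present in Hspa5 (1 copy, 65 to 47 bases before the start), Hsp90b1 (2 copies, 212 to 194 bases before it and, on the other strand, 107 to 89) and Calr (1 copy on the other strand, 162 to 144). That is 3 of 9 members, where 39 of 32851 promoters of the same length hold it (0.119%). The element is known from ER chaperone genes of this kind, so these shares are a description, not independent support, and were not tested. The sequences follow 5′ to 3′ on the strand of the gene, with the outer blocks of each element in capitals (as CCAAT and CCACG, or CGTGG and ATTGG where it lies on the other strand).
Hspa5, chr2:34771840-34772139, plus strand: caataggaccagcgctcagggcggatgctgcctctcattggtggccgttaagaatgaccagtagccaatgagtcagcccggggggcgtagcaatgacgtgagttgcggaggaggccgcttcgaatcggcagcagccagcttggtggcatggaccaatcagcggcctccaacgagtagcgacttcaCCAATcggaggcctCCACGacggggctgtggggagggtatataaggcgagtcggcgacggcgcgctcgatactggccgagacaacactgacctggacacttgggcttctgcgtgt
Hsp90b1, chr10:86705395-86705694, minus strand: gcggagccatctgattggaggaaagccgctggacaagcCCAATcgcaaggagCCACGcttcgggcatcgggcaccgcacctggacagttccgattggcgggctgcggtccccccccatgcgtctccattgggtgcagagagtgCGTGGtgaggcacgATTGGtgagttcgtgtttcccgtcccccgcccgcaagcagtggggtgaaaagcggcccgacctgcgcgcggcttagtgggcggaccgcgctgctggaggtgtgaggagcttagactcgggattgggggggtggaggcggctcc
Calr, chr8:84846882-84847181, minus strand: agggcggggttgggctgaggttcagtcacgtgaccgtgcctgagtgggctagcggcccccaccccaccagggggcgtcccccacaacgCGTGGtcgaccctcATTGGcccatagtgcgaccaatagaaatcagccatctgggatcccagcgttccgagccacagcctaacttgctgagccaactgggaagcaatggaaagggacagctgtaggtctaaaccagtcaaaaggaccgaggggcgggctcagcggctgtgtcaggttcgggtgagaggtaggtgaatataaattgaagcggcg

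The shorter blocks alone set the members apart less, and they overlap with the element by their letters. CCAAT was in 7 of 9 members and in 37.4% of all promoters, and CCACG in 6 of 9 and 32.8%. TGACGTG, the core of the unfolded protein response element bound by XBP1 and ATF6, was in 1 of 9, that of Hspa5, and in 2.01% of promoters. TGATGNAA, a core of the element bound by ATF4 with its partners, was in 0 of 9 and in 3.97%. Of the genes on the pathway lists, 10 of 67 with a promoter held the full element, among them the disulphide isomerase Pdia6, the co-chaperone Dnajc3, the lectin chaperone Canx and the ubiquitin ligase Syvn1. A match is a run of letters and not evidence that a factor binds.

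The difference between the 7 classes was tested in 1 fit over all classes with the library as block (quasi-likelihood F test of edgeR, Benjamini-Hochberg adjusted p under 0.1). Of the 8 members with enough counts, 6 passed: Atf6 (adjusted p = 2.0e-18), Ern1 (0.0194), Atf4 (0.0200), Hspa5 (0.0213), Eif2ak3 (0.0385) and Calr (0.0808). Hsp90b1 (0.124) and Xbp1 (0.345) did not, and Ddit3 and Pdia4 were not tested. Over all genes tested the share that passed was 73.5%, so 6 of 8 is near that background. The count fell to 3 without PE-low replicate 1 and to 2 without PE-low replicate 2, where only 4 members had counts enough, and Atf6 passed in each of these fits.

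Neurons and glia were then compared as the mean of the 3 neuronal classes against the mean of the 4 glial ones, on the log2 scale with standard errors. Atf6 was higher in neurons, by 0.60 ± 0.11 (adjusted p = 5.6e-06, edgeR), while 25.5% of all genes tested passed in that direction. Atf4 (−0.59 ± 0.23, adjusted p = 0.0307), Xbp1 (−0.42 ± 0.20, 0.0854), Hsp90b1 (−0.35 ± 0.12, 0.0122) and Hspa5 (−0.29 ± 0.13, 0.0710) were lower in neurons, 4 of 8 members against 19.9% of all genes. Calr (−0.17 ± 0.12), Eif2ak3 (−0.16) and Ern1 (−0.10) did not pass. With RLE in place of TMM scaling the split of all calls moved from 2063 higher and 1607 lower to 1617 higher and 2061 lower, as the median gene moved from 0.02 to −0.09, and the 5 members kept their calls. Leaving out 1 library at a time left between 1 and 4 calls, the fewest without PE-low replicate 2, while Atf6 was called each time.

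Glial levels of the factors and chaperones have to be read beside RNA that belongs to no nucleus. In near-empty barcodes (ranked 45000 to 90000 by UMIs, 5205173 to 8083296 UMIs per library), Hspa5 measured 423, 463, 392 and 407 CPM, in the same order of libraries. Calr measured 380.2, 371, 356 and 363 CPM there, and Xbp1 101, 93.0, 89.8 and 95.5 CPM. All of these values lay above those of every class. The sensors were the other way: Atf6 had 66.1, 69.0, 60.4 and 67.2 CPM, Eif2ak3 12.04 to 13.8 CPM and Ern1 5.32 to 7.12 CPM, each below the excitatory values.

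Tested within libraries, all 10 members differed between near-empty barcodes and kept nuclei. On the log2 scale Hspa5 (2.59 ± 0.06, edgeR adjusted p = 9.3e-37), Ddit3 (2.49 ± 0.11), Calr (2.49 ± 0.06), Atf4 (2.13 ± 0.08), Hsp90b1 (2.12 ± 0.06), Xbp1 (2.01 ± 0.07) and Pdia4 (1.64 ± 0.10) were higher in near-empty barcodes, 7 of 10 beside 44% of all genes. Ern1 (−1.76 ± 0.13), Atf6 (−1.18 ± 0.06) and Eif2ak3 (−0.84 ± 0.10, adjusted p = 6.9e-10) were lower, 3 of 10 beside 45.3% of all genes. The factors and chaperones stood between the 81.7 and 95.1 percentiles of the ratio over all genes, the sensors between the 16.7 and 32.99 percentiles. The divide ran by role without exception: all 3 sensors were on one side, and all 7 factors and folding genes on the other.

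It also ran by the span of the gene. The sensors span 163.098 kb (Atf6), 93.203 kb (Ern1) and 60.731 kb (Eif2ak3), whereas the others span from 2.358 kb (Atf4) to 17.29 kb (Pdia4). Over the 15979 genes with a span, the median log2 ratio fell from 1.42 for genes under 10 kb to −1.16 for genes of 60 kb and more, of which 79.4% were called lower. The sensors and the other members lay on the same sides as most genes of their span, and the part of span in the ratio was not tested. Mitochondrial RNA, which is not nuclear, made up 10.7% to 14.2% of the UMIs of near-empty barcodes.

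**Figure D2:**
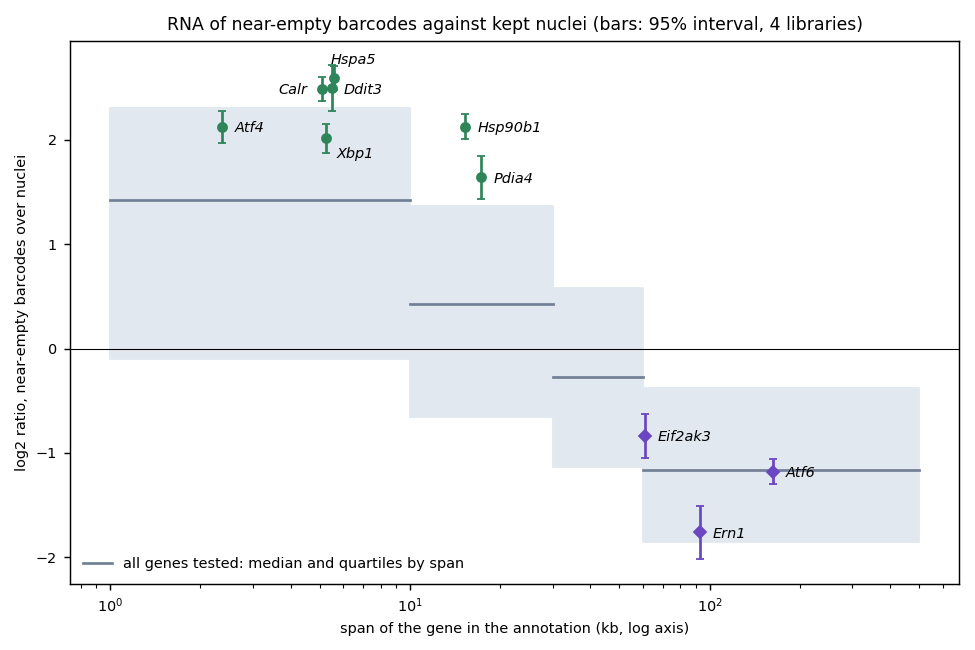
Log2 ratio of each gene in near-empty barcodes over kept nuclei, with its 95% interval from 4 libraries, against the span of the gene in kb on a log axis (purple diamonds sensors, green circles factors and chaperones, grey line and band the median and quartiles of all genes tested in 4 bins of span). The 3 sensors lie below 0 at spans of 60.731 kb and more, and the other 7 genes lie above 1 at spans of 17.29 kb and less.

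The share of such RNA in each class was estimated from markers of other classes, at 16.5% to 20.2% in excitatory nuclei and 12.7% to 17.5% in striatal nuclei. In excitatory nuclei, that share of the near-empty profile would give 79.2 CPM of Hspa5, 69.4 CPM of Calr and 7.31 CPM of Ddit3, and the means measured were 67.6, 66.6 and 7.01 CPM. Hspa5 was above its estimate in 0 of 4 libraries and Calr in 1 of 4, so these levels are not to be told from RNA outside the nuclei. A level cannot lie below its own outside part, so for Hspa5 the estimate is too high and is only a rough guide. Hsp90b1 (106 against 84.4 CPM), Xbp1 (23.1 against 17.9 CPM), Atf4 (22.8 against 16.5 CPM) and Pdia4 (10.3 against 6.23 CPM) were above it in 4 of 4 libraries by small amounts. The sensors were far above it, Atf6 at 176 against 12.4 CPM, Eif2ak3 at 27.7 against 2.45 CPM and Ern1 at 24.4 against 1.18 CPM.

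For glial nuclei the share was estimated from neuronal markers, and for neurons from glial and endothelial ones, so the values of neurons and glia are not comparable. The glial estimate was 51.1% to 83.3% in astrocytes, oligodendrocytes and microglia. It reached the upper limit of 90% set for the estimate in precursors, so it has no use there. In astrocytes, oligodendrocytes and microglia, Hspa5, Hsp90b1 and Calr were below the level it would give in 4 of 4 libraries of each class, while Atf6 was above it in 4 of 4. Microglial Hsp90b1, at 193 CPM, stood beside an estimate of 307 CPM. The estimate is thus too high for these chaperones in glia as well, and it does not give the amount of outside RNA in them. The subtraction named next used the same shares and so took away too much of these genes. The part of outside RNA in the higher chaperone and factor levels of glia was not tested beyond this subtraction. After it 2 members could still be tested in neurons against glia, and Atf6 alone was called. Ratios between members moved too: Hspa5 over Hsp90b1 was 0.644 ± 0.0676 in excitatory nuclei and 0.938 ± 0.0248 in near-empty barcodes (n = 4), whereas Xbp1 over Hsp90b1 was 0.218 ± 0.0330 and 0.212 ± 0.0183.

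The members also moved with the mitochondrial share of a nucleus. To follow this past the limit of 3% that the study set, nuclei with up to 15% were clustered and named again (37524 nuclei), and levels were taken in CPM of the UMIs that were not mitochondrial. In excitatory nuclei Hspa5 measured 62.8 ± 2.00 CPM (n = 4) at shares of 1% to 2%, 105 ± 18.7 CPM at 5% to 10%, and 142 ± 53.9 CPM at 10% to 15%. Hsp90b1 went from 98.3 to 138 and 155 CPM and Calr from 65.8 to 99.9 and 112 CPM, and all 3 genes were higher at 5% to 10% than at 1% to 2% in 4 of 4 libraries. Atf6 (175, 170 and 128 CPM) and Eif2ak3 (30.1, 22.1 and 8.36 CPM) were lower at 10% to 15% than at 1% to 2% in 4 of 4 libraries, and Ern1 stayed between 21.2 and 25.4 CPM. The last value of Eif2ak3 rests on 9 UMIs, with 0 in both PE-low replicate 1 and PE-high replicate 2. At 10% to 15% Hsp90b1 and Calr were higher than at 1% to 2% in 4 of 4 libraries of excitatory, striatal and inhibitory nuclei, and Hspa5 in 3 of 4 excitatory and in 4 of 4 striatal and inhibitory libraries. The lower sensors were not seen as clearly outside excitatory nuclei. Atf6 was lower in 3 of 4 striatal and 2 of 4 inhibitory libraries, and Eif2ak3 in 2 of 4 of each.

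**Figure D3:**
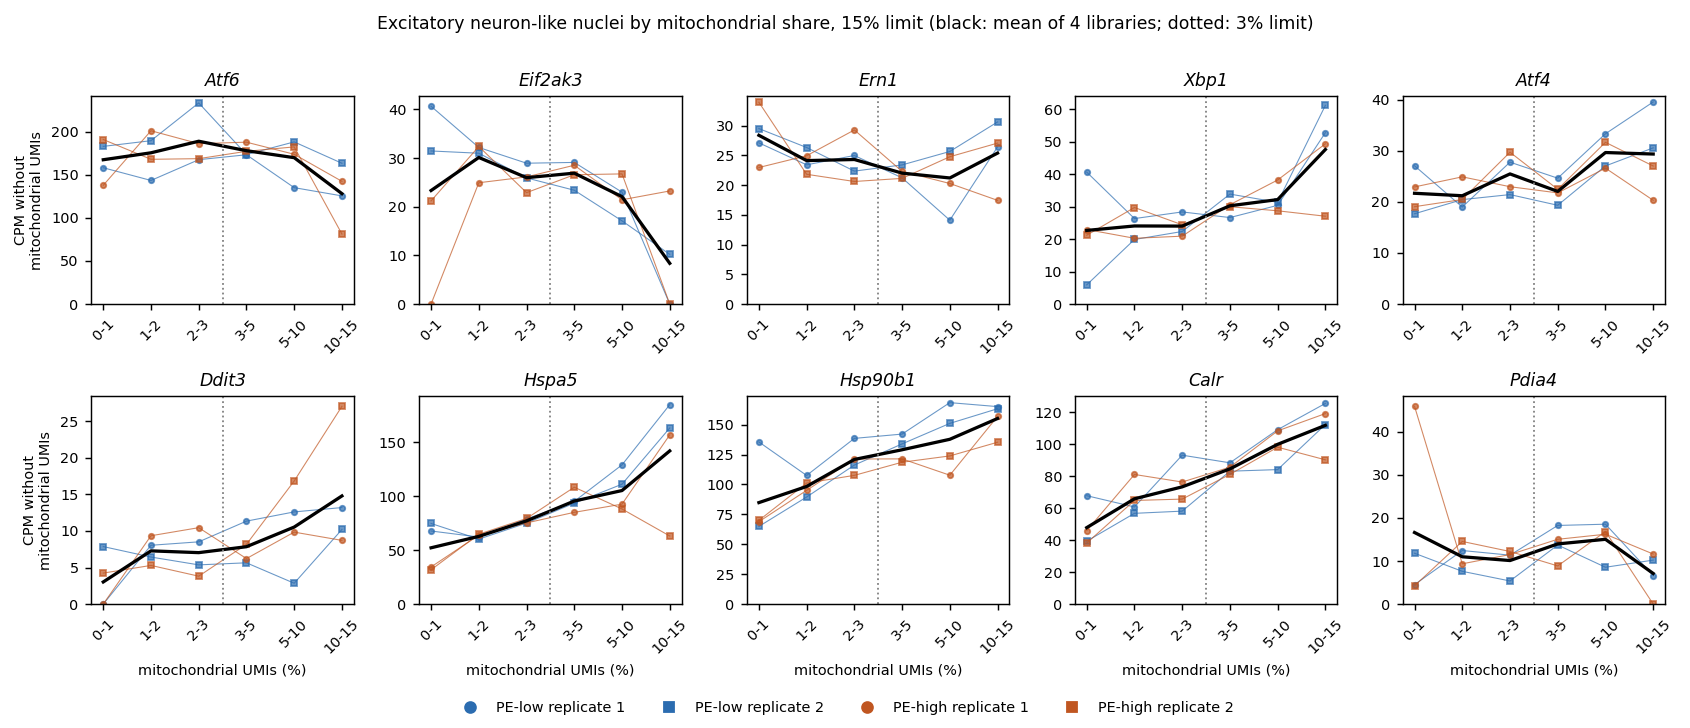
Level of each gene in excitatory nuclei by the mitochondrial share of the nucleus, in CPM of the UMIs that were not mitochondrial, with thin lines for the 4 libraries (blue PE-low, orange PE-high), a black line for their mean and a dotted line at the limit of 3%. Hspa5, Hsp90b1 and Calr climb to the right, Hspa5 from 62.8 to 142 CPM, while Atf6 and Eif2ak3 end lower than they began.

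At the limit of 15% a further class could be named from its markers, endothelial nuclei (849 nuclei), which line blood vessels. They held the highest level of Xbp1 among classes of over 100 nuclei: 94.9, 155, 124 and 110 CPM (121 ± 25.9, n = 4, 121 UMIs), where the highest library of the 7 other classes reached 74.0 CPM. The mean was 4.49 times that of excitatory nuclei at the same limit. Hspa5 was also high in them, at 222, 282, 207 and 201 CPM (228 ± 37.2), though it overlapped with microglia. Each of these values lay below the near-empty barcodes of the same library (423, 463, 392 and 407 CPM). The median mitochondrial share of endothelial nuclei was 7.79%. Xbp1 was higher in them than in the near-empty barcodes of the same library in 3 of 4 libraries, the exception being PE-low replicate 1 (94.9 against 101 CPM).

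At this limit all 10 members passed the test between classes (adjusted p under 0.1, edgeR, Xbp1 at 8.3e-12), where 93.3% of all genes did. Atf6 kept striatal nuclei at the top, at 220.0 CPM, and it was 103 ± 19.9 CPM in endothelial nuclei. Smaller classes named at this limit had few UMIs: the 70 mural nuclei held a mean of 139 CPM of Xbp1, on libraries of 5563 to 38977 UMIs in all, and overlapped with endothelial nuclei.

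**Figure D4:**
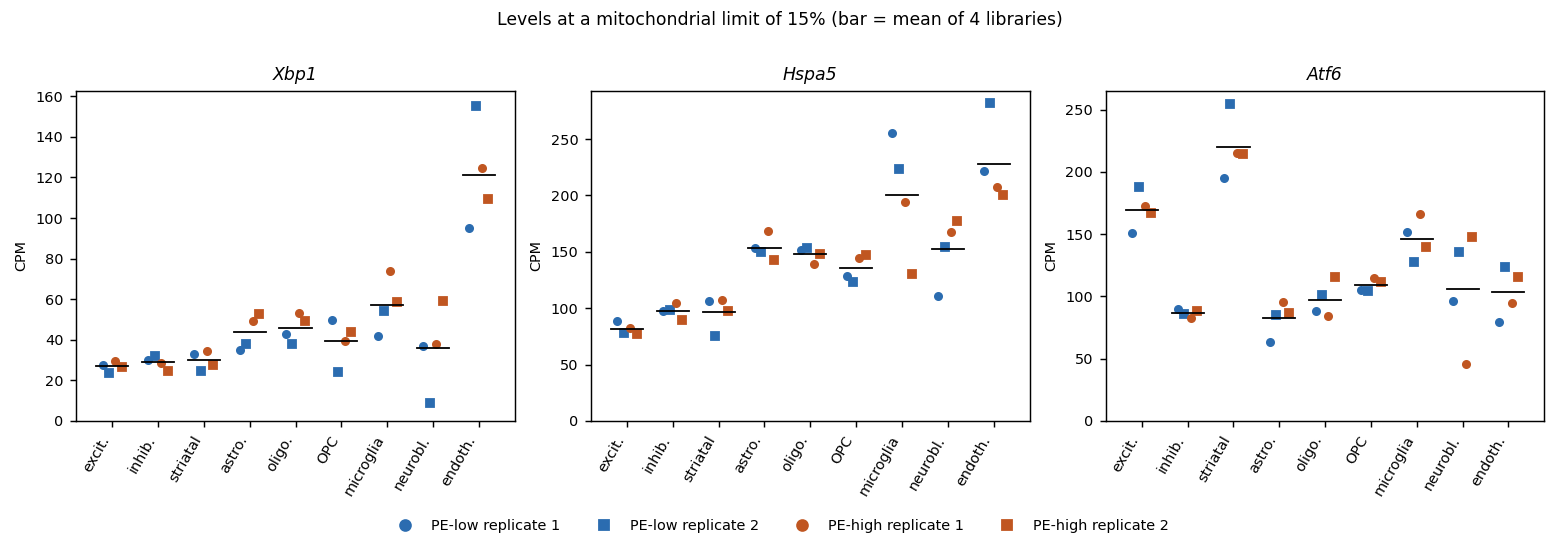
Levels of Xbp1, Hspa5 and Atf6 with nuclei of up to 15% mitochondrial UMIs, in CPM on linear axes from 0, with 1 point per library and a bar at the mean of 4 libraries in 9 classes. All 4 endothelial libraries of Xbp1, 94.9 CPM and above, lie over every library of the other classes shown.

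The study asked whether EVs rich in PE change brain cells of these mice. It reports Xbp1, Atf4 and Eif2ak3 as elevated with PE-high EVs in excitatory neurons, by a test over nuclei. Those nuclei come from these same libraries, so directions here are not independent evidence. In sums per library of excitatory neurons their log2 fold changes were 0.02 ± 0.22, 0.15 ± 0.21 and −0.23 ± 0.19, in that order, and none was called. These sums use the limit of 3%, which left fewer nuclei than the study states, so the nuclei compared are not the same. At the limit of 15%, nearer to its number, excitatory Xbp1 had 27.7, 23.8, 29.6 and 26.8 CPM. Atf4 had 25.5, 20.6, 22.6 and 24.1 CPM there and Eif2ak3 27.2, 25.2, 23.6 and 25.5 CPM, and again none was called. Over all kept nuclei, Xbp1 had 28.9, 24.2, 24.1 and 24.7 CPM in the 4 libraries, Atf4 22.1, 18.4, 25.4 and 23.6 CPM, and Eif2ak3 26.4, 27.6, 23.8 and 23.2 CPM. PE-high lay below PE-low for Eif2ak3 and above it for Atf4, and for Xbp1 the groups overlapped. Atf6 (154, 162, 174 and 164 CPM) also had PE-high above PE-low. The share of all genes with groups apart in this way was not counted, so these orders are not read as results. With 2 libraries per group an exact permutation test cannot go below p = 0.333, so a fit across all genes was used, and whether the spread between libraries is biological or technical cannot be told.

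In excitatory neurons none of the 10 members passed, beside 0.092% of all genes (12 of 13046). The log2 fold changes of PE-high over PE-low were 0.02 ± 0.22 for Xbp1 (95% interval −0.42 to 0.47), 0.15 ± 0.21 for Atf4 (−0.28 to 0.58) and −0.23 ± 0.19 for Eif2ak3 (−0.62 to 0.16). For Atf6 the value was 0.02 ± 0.12 (−0.23 to 0.28) and for Ern1 0.01 ± 0.21 (−0.41 to 0.43). The chaperones had −0.02 ± 0.14 for Hspa5 (−0.31 to 0.27), −0.08 ± 0.13 for Hsp90b1 (−0.36 to 0.19) and 0.07 ± 0.16 for Calr (−0.26 to 0.39). Pdia4 (0.46 ± 0.30, −0.14 to 1.06, unadjusted p = 0.130 by edgeR) and Ddit3 (−0.14 ± 0.38, −0.91 to 0.63) were the least certain. The adjusted p of each rounds to 1.0, and intervals of this width leave room for changes in either direction.

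Over all kept nuclei none of the 10 passed either, and 0% of all genes did (0 of 15190 by edgeR, 723 at an unadjusted p under 0.05, and 2 called by DESeq2). The lowest p was that of Atf4, 0.32 ± 0.17 on the log2 scale (−0.06 to 0.69, unadjusted p = 0.0900, edgeR). Atf6 had 0.14 ± 0.10 (−0.07 to 0.36), Pdia4 0.22 ± 0.21 (−0.24 to 0.69) and Ern1 0.13 ± 0.16 (−0.23 to 0.49). Eif2ak3 was at −0.16 ± 0.15 (−0.50 to 0.17), Xbp1 at −0.07 ± 0.16 (−0.42 to 0.28), Hsp90b1 at −0.07 ± 0.12 (−0.32 to 0.19), Ddit3 at −0.05 ± 0.26 (−0.63 to 0.52), Hspa5 at −0.02 ± 0.11 (−0.26 to 0.22) and Calr at 0.06 ± 0.13 (−0.22 to 0.35). A change in the mix of classes and a change within a class cannot be told apart in these sums.

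In the other 6 classes, 28 of 60 pairs of gene and class had counts enough to test, and none passed, with 0 at an unadjusted p under 0.05. Outside precursors, 0% of all genes passed in these classes. The log2 fold changes ran from −0.60 (Hspa5 in astrocytes, 110.1 and 126 CPM against 62.1 and 86.6 CPM) to 0.59 (Atf4 in striatal neurons), 15 above and 13 below 0. In precursors, where 0.0678% of genes were called, no member could be tested. Whether the difference between the groups itself differs between classes was tested as an interaction, which 0 of 8 members and 0.011% of all genes (1 of 9060) passed. Its lowest unadjusted p among the members was 0.0313 for Eif2ak3, with an adjusted p of 1.0 by edgeR.

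**Figure D5:**
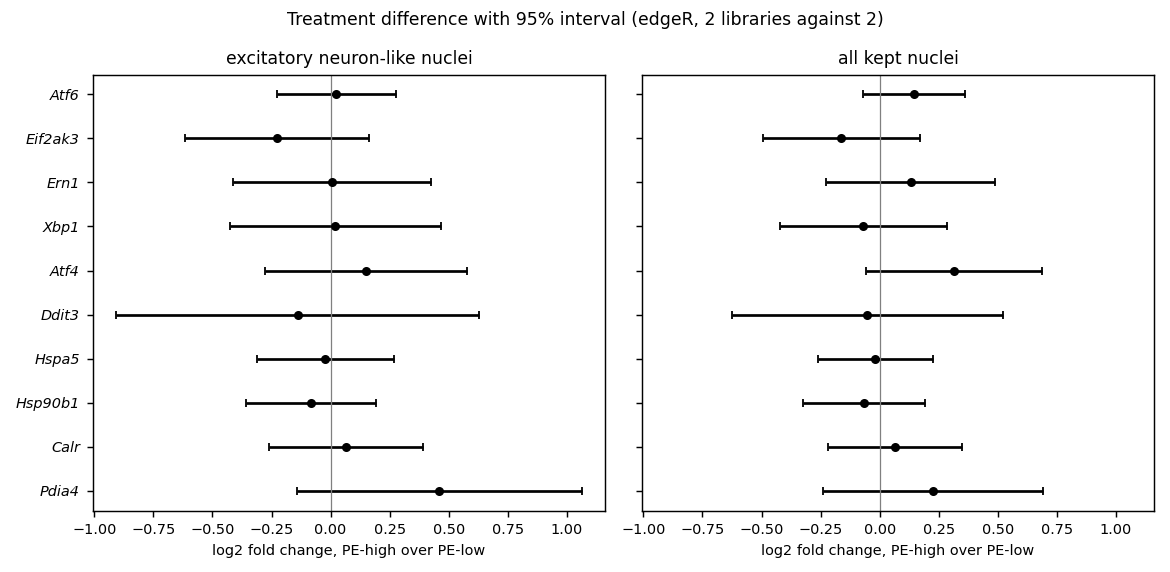
Log2 fold change of PE-high over PE-low for the 10 genes, in excitatory nuclei (left) and in all kept nuclei (right), with points at the estimate and bars for the 95% interval from 2 libraries against 2. Every interval crosses 0, from the widest, Ddit3 in excitatory nuclei (−0.91 to 0.63), to those of Atf6 and Hspa5 over all nuclei.

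The wider pathway was covered by 6 lists of 78 genes that include the members. Between near-empty barcodes and nuclei, 56 of 73 tested genes were called higher and 10 lower, beside 44% and 45.3% of all genes, with a median log2 ratio of 1.33 beside −0.04 for all genes. The lists differed as the members did: of 11 sensors and their processing genes 3 were higher and 6 lower, whereas of 18 ER chaperones and folding enzymes 17 were higher and 1 lower, of 8 factors all were higher, and of 14 genes of ER-associated degradation 11 were higher and 1 lower. Among genes that are not members, the largest ratios were those of the serine synthesis enzyme Phgdh (2.99), the chaperone cofactor Sdf2l1 (2.67) and the stress factor Nupr1 (2.497). The smallest were those of the mitochondrial folate enzyme Aldh1l2 (−1.90), the kinase Map3k5 (−1.497), which acts downstream of IRE1α, and the eIF2 kinase Eif2ak4 (−1.44).

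Between neurons and glia, 4 of 44 tested pathway genes were higher in neurons and 12 lower, beside 25.5% and 19.9% of all genes, with a median of −0.18 beside 0.02 for all genes. Those higher besides Atf6 were the asparagine synthetase Asns (0.69 ± 0.27), the disulphide reductase Dnajc10 (0.66 ± 0.17) and Mbtps1 (0.46 ± 0.18), which encodes the site-1 protease that cuts ATF6. The largest differences in the other direction were in the kinase PKR, Eif2ak2 (−2.99 ± 0.62), the antioxidant factor Nfe2l2 (−2.81 ± 0.49) and the ER-bound factor Creb3l2 (−2.17 ± 0.24). No pathway gene was called between PE-low and PE-high, of 71 tested in all nuclei and 63 in excitatory neurons, and none of 48 in the interaction.

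Finally, the genes most like each member over the 36 named clusters were listed by Pearson's r of log2(CPM + 1), among 10313 genes with at least 200 UMIs, as a description. Atf6 went with the adenylyl cyclase gene Adcy9 (r = 0.81), Kctd1 (0.81) and Scn4b (0.78), a sodium channel subunit. Hspa5 went with Cct8 (0.82), Psmd8 (0.81) and Lin7c (0.81), and Xbp1 with Etf1, Ttc1 and the ribosomal gene Rplp2 (each 0.84). Ribosomal genes were also among those nearest to Atf4 (Rps15a, 0.79), Ern1 (Rplp2, 0.77), Hsp90b1 (Rpl23a, 0.75) and Calr (Rpl23, 0.76, and Rpl9, 0.74). For Eif2ak3 they were Denr (0.85), Vamp2 (0.85) and Slc36a1 (0.83), and for Pdia4 Ercc3 (0.84), Rmdn2 (0.83) and Armt1 (0.82). The clusters share libraries and differ in depth, so these likenesses also carry both, and Ddit3 had too few UMIs.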

How the data were processed

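Single-nucleus RNA was measured in 4 libraries of whole brain, 2 per group, grouped by the treatment in GEO's labels. Per the submitters' processing notes the authors used Cell Ranger 7.1.0 and mm10, and the deposited UMI counts per gene and barcode are neither filtered nor normalized. The lists of genes and barcodes, also deposited, hold names only. Whether intronic reads were counted is not given in the sources used here.

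Nuclei were called by a knee and, from 500 UMIs, by a test against near-empty barcodes (ranks 45000 to 90000, 10000 simulations, FDR 0.01). The limits of the study were then applied (from 200 up to 2500 genes, a mitochondrial share of UMIs up to 3%). The nuclei left are fewer than the study states, and a limit of 15% comes nearer. Clusters (2000 variable genes without the members and pathway lists, 30 principal components, 20 neighbours, leidenalg 0.10.2 at resolution 1, again at 0.4 within 6 of 31 clusters) were named from markers at 20 CPM or more. Non-neuronal classes needed at least 3 markers, and 50% of their list, at 3 times the median over clusters. Neuronal classes went by glutamatergic against GABAergic genes, and by markers at 1.5 times the lower quartile over clusters. Of 42 clusters, 6 stayed unnamed. Doublets were not removed.

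UMIs were summed per class and library, for classes with at least 10 nuclei per library, and tested with edgeR 4.0.16 in R 4.3.3 (filterByExpr, TMM, quasi-likelihood, Benjamini-Hochberg over all genes tested, threshold 0.1). Fits compared the groups per class, the classes, neurons with glia, the interaction of class and group, and near-empty barcodes with nuclei, the last 4 with the library as block. Scripts were tested on simulated counts. The members and lists were chosen with earlier results of these data known, and the naming thresholds were revised after the clusters had been seen. Every member was to be named, with full values for the groups in excitatory neurons and all nuclei, in other classes at an unadjusted p under 0.05, and other pathway genes when called between the groups or among the 3 largest and 3 smallest called ratios. Alternatives were DESeq2 1.42.0, RLE, no low-count filter, the replicate number as a block, an adjusted p of 0.05, a limit of 15%, no upper limit on genes, other near-empty barcodes, subtraction of outside RNA and leaving out each library. The fit of endothelial nuclei and those without 1 striatal cluster were chosen later, with the data in view. Counts of 0 were given the limit of 3 counts, for counting error only. Gene positions are from GENCODE release 21 (vM21, GRCm38), promoters from RefSeq (GRCm38.p6).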

Additional observations from a re-analysis of the deposited data

How the results depend on the processing

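No member was called between PE-low and PE-high under any of the 11 alternatives. The count of all genes called there was unstable. Over all kept nuclei (0) it was 2 with DESeq2, 140 with no low-count filter and 198 with the replicate number as block, and 0 to 937 with 1 library left out (937 without PE-low replicate 1, 259 without PE-low replicate 2). In excitatory neurons (12) it was 6 at an adjusted p of 0.05, 1 with DESeq2, 30 with no filter, 36 with the block, 2 at the 15% limit and 4 with no upper limit on genes, and 6 to 255 with 1 library left out (the extremes without PE-high replicate 1 and PE-low replicate 2). With no filter and with the block it was 2 and 14 in inhibitory neurons, 2 and 29 in striatal neurons, 8 and 97 in astrocytes and 1 and 20 in oligodendrocytes, each 0 as reported. With 1 library left out it was 0 to 237 in striatal neurons (without PE-low replicate 1), 0 to 57 in astrocytes (without PE-high replicate 2), 0 to 48 in oligodendrocytes (without PE-low replicate 1), 0 to 3 in microglia (without PE-high replicate 2) and 0 to 1 in precursors, where the 1 gene called was lost with no filter (0), at the 15% limit (0) and without PE-low replicate 2. A group left with 1 library is assumed to vary like the other. Libraries share only a replicate number: their deviations correlated at 0.107 over all nuclei and from 0.020 in excitatory neurons to 0.142 in astrocytes, and the block changed no call of a member.

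Members called between classes (6) were 10 at the 15% limit and 2 to 6 with 1 library left out. Between neurons and glia (5) they were 1 with no filter, 9 at the 15% limit, 1 after subtraction of outside RNA, which left 2 to test, and 1 to 4 with 1 library left out. Against near-empty barcodes of 10 to 100 UMIs, which hold 36508 to 50300 UMIs per library, 6 of 10 were called, and no ratio turned. Without the striatal cluster led by Tacr1 and Nos1, a choice made after the data had been seen, the counts of members called stayed at 6 between classes, 5 between neurons and glia and 0 in the interaction.

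Values near 0 turned. Between the groups in excitatory neurons these were Xbp1 (−0.0074) and Hspa5 (0.0072) with no upper limit on genes and Ddit3 (0.071) at the 15% limit, and with 1 library left out Xbp1 (−0.22 to 0.34), Atf6 (−0.17 to 0.25), Ern1 (−0.10 to 0.17), Hspa5 (−0.059 to 0.031), Hsp90b1 (−0.27 to 0.12), Ddit3 (−0.63 to 0.47) and Calr (−0.15 to 0.30). Over all nuclei these were Xbp1 (0.14), Eif2ak3 (0.021) and Ddit3 (0.13) at the 15% limit and Hspa5 (0.022) with no upper limit, and with 1 library left out Xbp1 (−0.20 to 0.068), Hspa5 (−0.081 to 0.042), Hsp90b1 (−0.21 to 0.086), Ddit3 (−0.22 to 0.10) and Calr (−0.073 to 0.19). Between neurons and glia they were Eif2ak3 (0.042), Ern1 (0.10) and Calr (0.037) with no filter, and Ern1 with 1 library left out (−0.15 to 0.24). The cause of these turns was not tested. Glial values rest on little depth, with as few as 21113 UMIs in a library of precursors.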

Other observations

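At the mitochondrial limit of 15%, small classes outside the main comparisons held high levels of the lumenal chaperones. Ependymal nuclei (58 nuclei), the ciliated lining of the ventricles, had Hspa5 at 322, 186, 403 and 329 CPM in PE-low replicates 1 and 2 and PE-high replicates 1 and 2 (309.9 ± 90.3, n = 4, 27 UMIs). Nuclei with markers of progenitors and neuroblasts (558 nuclei) had Hsp90b1 at 273, 154, 206 and 236 CPM (217 ± 50.4, n = 4, 97 UMIs) and Atf4 at a mean of 41.9 ± 16.3 CPM on 19 UMIs. These values lie near or below those of near-empty barcodes (421 CPM of Hspa5, 449.6 CPM of Hsp90b1 and 87.6 CPM of Atf4), and the part of outside RNA in them was not tested.

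In endothelial nuclei, a class added after the data had been seen, 6 of the 10 genes had counts enough for a test of PE-high against PE-low, and none was called, beside 0 of 4948 genes in that fit (103 at an unadjusted p under 0.05, edgeR). The log2 fold change of Xbp1 was −0.02 ± 0.39 (95% interval −0.97 to 0.92), that of Atf4 −0.44 ± 0.40 (−1.43 to 0.55) and that of Hspa5 −0.24 ± 0.31 (−1.005 to 0.52).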
